A study of Abies pinsapo with 12 samples.

Results

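The most abundant transcripts of Spanish fir (Abies pinsapo) needles were taken as those whose mean over the 12 deposited library columns was 1000 or more. They were 67 of 329801 assembled transcripts, or 0.0203%, and they held 17.6% of the mean library. The members were chosen by these levels, so the levels and shares given below describe them and carry no test. The labels of month and treatment were not used in the choice, but the tests between months and treatments below use the same 12 values, in which the May columns weigh more, and are not independent of it. Identifiers are of the kind written by Trinity, a program that assembles transcripts from reads without a genome, and in them a DN number and a c number together name a component, a group of assembled sequences that overlap one another, and the g number names a gene within it. The table pairs no identifier with a gene name or a sequence, so no function, cell type or sequence is given here, and the label of needle tissue could not be checked against marker genes.

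Needles came from adult trees growing in the field in the Sierra de las Nieves in southern Spain. Control trees stood in dense, unthinned forest. Thinning trees stood where neighbouring trees had been removed in 2004, which lowers competition for water and light. The trees with thinning plus shading also stood in thinned plots, under a mesh that set their light near that in the control forest. Each treatment had 3 plots of 100 m2 and was sampled in August 2016 and again in May 2017, with 2 libraries each time, which makes 6 groups and 12 libraries. The labels leave unsaid whether the pair of libraries in a group is of different trees or plots, or of pools, so p-values reflect only how far these libraries differ, which may be technical.

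The mRNA of a green leaf is unevenly spread over genes. In leaves in general, nuclear genes for photosynthesis proteins such as the small subunit of Rubisco and the chlorophyll-binding antenna proteins are among those with the most abundant transcripts. Because TPM, a value per transcript, gives each transcript as a share of a fixed total after correction for length, a rise in a few very abundant transcripts lowers the shares of all others in that library. A transcript's level per length can also differ between bulk samples because fewer cells of a type are present or because each cell holds less of its RNA, and the 2 cannot be told apart here.

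The deposited values are TPM multiplied by 1 factor per library, called scaled TPM below. The factor was 0.901 ± 0.0312 in the August libraries and 1.11 ± 0.0564 in the May libraries (mean ± SD, n = 6). Each change is therefore given as deposited and again after every column was rescaled to one total, which gives back TPM. Sequencing depth is unknown. The May libraries of the thinning trees stood apart from the rest and from each other. Replicate 1 listed 208032 transcripts above 0, where the other 11 libraries listed between 81710 and 117855. Among the 67 members the TPM values of its 2 replicates differed by a median of 2.10-fold, against 1.14- to 1.37-fold in the other 5 groups, and 11 members differed 10-fold or more.

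Member means ran from 1001 to 17631 scaled TPM with a median of 1684. TRINITY_DN7298_c0_g1 had the highest mean, 17631, and was followed by TRINITY_DN3031_c1_g1 at 15706 and TRINITY_DN7298_c0_g2 at 13489. The next 7 were TRINITY_DN2293_c0_g2 at 7137, TRINITY_DN2293_c0_g1 at 5869, TRINITY_DN1564_c0_g1 at 5288, TRINITY_DN3373_c0_g2 at 4260.2, TRINITY_DN12_c0_g3 at 4204, TRINITY_DN4563_c0_g1 at 4146 and TRINITY_DN4_c0_g1 at 3186. A mean of 1000 did not mean a high level throughout. In 19 members every library was at 1000 or more, in 16 members at most 6 libraries were, and the median over the libraries was under 1000 in 12. The highest library exceeded the lowest by a median of 4.14-fold over the members, by 10-fold or more in 17 and by 100-fold or more in 10; no member stayed within 2-fold. Just above the threshold lay TRINITY_DN14077_c0_g1 at 1016, TRINITY_DN3928_c0_g1 at 1011 and TRINITY_DN15116_c0_g2 at 1001, and just below it TRINITY_DN15117_c0_g1 at 994, TRINITY_DN281_c0_g1 at 983 and TRINITY_DN719_c1_g1 at 972.

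The members took a larger share of the May libraries than of the August libraries, with 1 May library as low as those of August. In August they held 11.9% and 14.7% of the control libraries, 14.3% and 14.0% of the thinning libraries, and 14.0% and 12.6% of the libraries with thinning plus shading. In May the shares were 21.0% and 21.8% for control trees, 15.4% and 13.2% for thinning trees and 25.8% and 27.5% under thinning plus shading. The August mean was 13.6% ± 1.08 and the May mean 20.8% ± 5.61 (SD, n = 6 each), a ratio of 1.53. The May mean was 21.9% without thinning replicate 1 and 22.3% without thinning replicate 2. In August the control libraries overlapped those of both other treatments, and both thinning libraries were above both libraries with thinning plus shading, the nearest pair by less than the rounding shown. In May both libraries with thinning plus shading lay above both control libraries, and these above both thinning libraries. A share does not depend on the factor of a library.

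**Figure D1:**
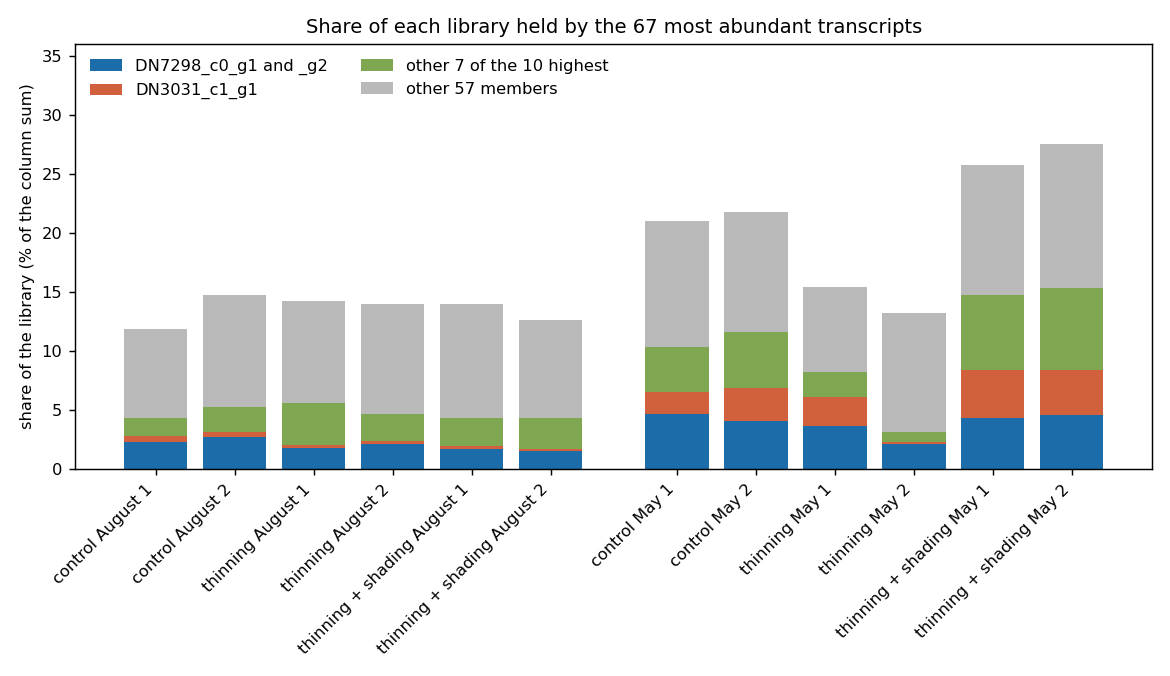
Bars give the percent of each library's summed value that the 67 members held, one bar per library, with August on the left and May on the right; colours split the bar into the TRINITY_DN7298_c0 pair, TRINITY_DN3031_c1_g1, the other 7 of the 10 highest members and the other 57 (the TRINITY_ prefix is left out in the figures). August bars end between 11.9% and 14.7%, and May bars between 13.2% and 27.5%.

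A few transcripts carried most of the May excess. TRINITY_DN3031_c1_g1 held 0.311% ± 0.129 of the August libraries and 2.53% ± 1.44 of the May libraries (mean ± SD, n = 6 each). Its gain was 2.21 percentage points, or 30.7% of the net gain of 7.22 points. The TRINITY_DN7298_c0 pair held 2.04% ± 0.448 and 3.93% ± 0.947. Together these 3 transcripts made up 56.9% of the net gain, and the 10 transcripts with the largest gain 91.5%. These percentages are of the net change, from which losses are taken off, and over all 46 gaining members they reach 118%. Among these 10, TRINITY_DN7993_c0_g1 and TRINITY_DN5592_c0_g1 gained 0.366 and 0.363 points. Both were highest in thinning May replicate 2 and next in control May replicate 1, so their gain does not stand for all May libraries. In all, 46 members gained 8.53 points and 21 changed by -1.31 points. The 10 members with the highest means held 4.76% of the August and 10.6% of the May libraries, and the other 57 held 8.81% and 10.2%.

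Which transcripts were the highest also differed between libraries. TRINITY_DN7298_c0_g1 was the top transcript of all 6 August libraries and of control May replicate 1. TRINITY_DN3031_c1_g1 was the top one in control May replicate 2, in thinning May replicate 1 and in both May libraries with thinning plus shading. TRINITY_DN7993_c0_g1 led thinning May replicate 2, where it held 1.45% of the library. Of each library's own 67 highest transcripts, between 42 and 57 were members, except in thinning May replicate 2, where 34 were. The sum of the members was 122209 ± 10203 in August and 232376 ± 67825 in May on the deposited scale, a ratio of 1.90, and the sum of all other transcripts was 778442 and 879703, a ratio of 1.13.

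Many of the members come in pairs from 1 component. The 67 members fell in 51 components: 16 components held 2 members each (32 members) and 35 held 1. By DN number alone there were 47 clusters, of which 19 held 2 or more members. In the 51 components there were 42 further transcripts that are not members, in 27 of the components, with means from 0.116 to 889.8 scaled TPM and a median of 14.5, of which 9 were at 100 or more. Genes of 1 component can be copies, alleles or fragments between which reads are shared, and the sources used here do not say how such reads were split, so the level of each single member of a pair is uncertain.

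In most shared components the 2 members kept a nearly constant ratio in all 12 libraries. The SD of the log2 ratio over the 12 libraries was under 0.03 in 11 of the 16 pairs and under 0.1 in 12. Its median was 0.0177, against 0.986 over the 2195 pairs of members from different components, as a description over libraries that share the same scaling. The pair with the highest level is an example: TRINITY_DN7298_c0_g1 was 1.28 to 1.32 times TRINITY_DN7298_c0_g2 in every library, while its own level varied 4.00-fold. TRINITY_DN166_c0_g2 was 1.12 to 1.15 times TRINITY_DN166_c0_g1. In TRINITY_DN9273_c0, g4 was 1.36 to 1.41 times g1. The other pairs this tight were those of TRINITY_DN5861_c0, TRINITY_DN4404_c0, TRINITY_DN1487_c0, TRINITY_DN2697_c0, TRINITY_DN4987_c0, TRINITY_DN107980_c0, TRINITY_DN765_c0 and TRINITY_DN5076_c0, with mean ratios (geometric) between 1.00 and 1.08, and TRINITY_DN501_c0 followed at an SD of 0.0508.

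The 4 other components held members that moved apart. In TRINITY_DN3928_c0, g2 was 0.980 to 1.27 times g1, with an SD of the log2 ratio of 0.126. In TRINITY_DN3373_c0, g2 was 1.96 to 3.54 times g1, with an SD of 0.256. TRINITY_DN2293_c0_g2 was at or above 1.21 times TRINITY_DN2293_c0_g1 in 11 libraries but at 0.617 times it in thinning plus shading August replicate 1, where g2 was at 2560.3 and g1 at 4149 scaled TPM. TRINITY_DN2293_c1_g1, from another component of that cluster, was at 4965 in the same library and between 12.8 and 961 in the other 5 August libraries. The widest pair was TRINITY_DN3059_c0, whose g3 was 0.417 to 2.01 times g2, with an SD of 0.613.

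**Figure D2:**
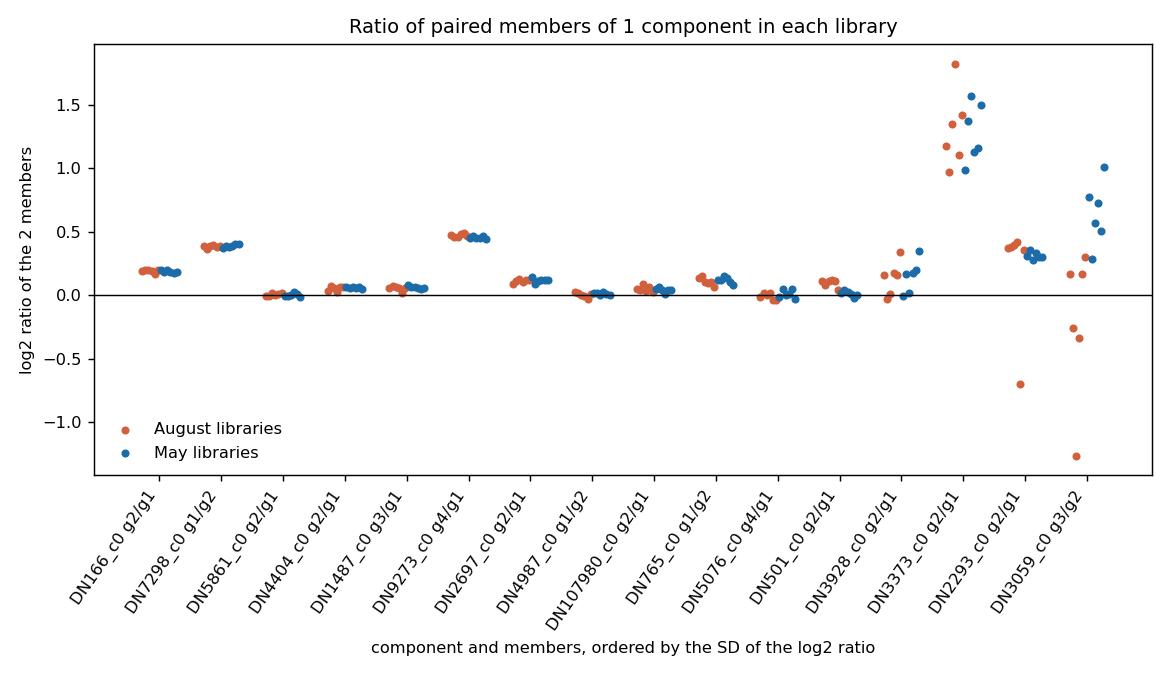
Points give the log2 ratio of the 2 members of a component in each of the 12 libraries, with August and May in separate colours and the 16 components ordered by the SD of their ratio. The first 11 pairs hardly vary, with SDs under 0.03, while the ratio in TRINITY_DN3059_c0 runs from 0.417 to 2.01 on the linear scale.

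Some members of different components matched each other as closely as members of 1 component did; these were picked after their values were seen. TRINITY_DN12_c0_g3 and TRINITY_DN4563_c0_g1 had the steadiest ratio of all 2211 pairs, 1.01 to 1.02 with an SD of the log2 ratio of 0.00599. TRINITY_DN1644_c0_g1 was 1.17 to 1.23 times TRINITY_DN1544_c0_g1, and TRINITY_DN2528_c1_g1 was 1.06 to 1.11 times TRINITY_DN212_c0_g1. In all, 9 pairs from different components had an SD under 0.1. The 2 members of TRINITY_DN3059_c0 each had such a partner elsewhere: g2 kept to TRINITY_DN13538_c0_g2 and TRINITY_DN958_c1_g2 (SD 0.0498 and 0.0537), and g3 to TRINITY_DN155_c1_g3 (SD 0.0849) and, less closely, to TRINITY_DN958_c0_g1 (SD 0.108). Members linked by an SD under 0.1 formed 47 sets, of which 19 held more than 1 member and 7 joined different components. The 67 members are thus not 67 independent readings.

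Between the months, 22 of the 67 members were called, 2 higher and 20 lower in August. That is 32.8% of the members, where 15.7% of all 19726 tested transcripts were called. For the lower calls it is 29.9% of the members, against 7.28% of all transcripts, and for the higher ones 2.99%, against 8.44%. The choice of members enters these shares, so nothing about the members is read from their distance to all transcripts: 20 members had a mean under 1000 in August and of 1000 or more in May, and 5 the reverse. Of the 20 lower calls 8 were among the former, and of the 2 higher calls 1 was among the latter. The other 12 lower calls and 1 higher call were among the 42 members with a mean of 1000 or more in both months. A call is an adjusted p under 0.05 (limma on log2(scaled TPM + 1), two-sided, Benjamini-Hochberg over all tested transcripts) for the difference August minus May, averaged with equal weight over the treatments. All 67 members passed the filter of 10 or more in at least 2 libraries. The median log2 fold change was -0.60 over the members and -0.05 over all tested transcripts. As the August needles are of 2016 and the May needles of 2017, season, year and sampling batch cannot be told apart.

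TRINITY_DN3031_c1_g1 had the largest called difference. Its August libraries were at 4973 and 3299 scaled TPM for control trees, 2009 and 2319.9 for thinning trees and 2560.1 and 1672 under thinning plus shading. Its May libraries were at 19968 and 30737 for control trees, 29048 and 1390.4 for thinning trees and 46299.7 and 44196 under thinning plus shading. Of the May libraries 5 lay above every August library and thinning replicate 2 lay below every one. The log2 fold change was -2.87 (SE 0.68, limma adjusted p = 0.027). It kept the call without either thinning May library, but lost it without any 1 of the other 10 libraries (highest limma adjusted p = 0.076).

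TRINITY_DN7298_c0_g1, the highest member, was at 11946 and 13649 in control August, 9565 and 10277 in thinning August and 9064 and 7608 in thinning plus shading August. In May it was at 28576 and 25633 for control trees, 24378 and 12501 for thinning trees and 27914 and 30466 under thinning plus shading. Only thinning May replicate 2 fell within the August range. The log2 fold change was -1.24 (SE 0.32, limma adjusted p = 0.038), and that of its partner TRINITY_DN7298_c0_g2 was -1.23 (SE 0.30, limma adjusted p = 0.031). Under quantile normalization, which gives each rank 1 common value, the sign of both turned, to 0.37 and 0.39. TRINITY_DN7298_c0_g1 was the top transcript of every August library, so its change cannot be negative on that scale. Its turn therefore says nothing about the month change.

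TRINITY_DN212_c0_g1 and TRINITY_DN94_c0_g1 were lower in August with no overlap between the months. The August libraries of TRINITY_DN212_c0_g1 were at 1421 and 1288 for control trees, 1168 and 1252 for thinning trees and 1485 and 972 under thinning plus shading. In May the same groups were at 3165 and 2952, 3192 and 2929.8, and 4714 and 4422, so every May library lay above every August library. Its log2 fold change was -1.48 (SE 0.18, limma adjusted p = 0.0034), and its near-proportional partner TRINITY_DN2528_c1_g1 had -1.49 (SE 0.19, limma adjusted p = 0.0037). TRINITY_DN94_c0_g1 was at 1269 ± 127 in August and 3343 ± 857 in May (mean ± SD, n = 6 each; log2 fold change -1.36, SE 0.19, limma adjusted p = 0.0048). TRINITY_DN1564_c0_g1, sixth by mean level, was at 3571 ± 248 in August and 7006 ± 1183 in May (n = 6 each; log2 fold change -0.96, limma adjusted p = 0.023).

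The other lower calls had log2 fold changes between -1.09 and -0.61. They were both members of TRINITY_DN4404_c0 (-1.09 each), of TRINITY_DN3928_c0 (-1.04 and -1.03), of TRINITY_DN107980_c0 (-1.02 and -1.01), of TRINITY_DN501_c0 (-0.78 and -0.69) and of TRINITY_DN4987_c0 (-0.62 and -0.61), and TRINITY_DN15116_c0_g2 (-0.65). TRINITY_DN6346_c0_g1 (-0.91) and TRINITY_DN2808_c0_g1 (-0.76), named after their values were seen, complete the 20. The median over the 20 was -1.02, 12 were 2-fold or more lower, and 19 had a log2 fold change below 0 in each of the 3 treatments. Since pairs count 2 times, the 20 calls stood for 14 components. With the transcripts of each component summed first, 14 of the 51 components that hold members were lower and 1 was higher (limma, adjusted p under 0.05). The share of all components called is not given here, so nothing about these components is read from the count.

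Of the 10 highest members, 6 were not called between the months. TRINITY_DN2293_c0_g2 was at 1046 and 1694 for control trees, 8888 and 1626 for thinning trees and 2560.3 and 5413 under thinning plus shading in August, and at 9437 and 12625, 2528 and 140.0, and 17949 and 21733 in May. Its control and shaded libraries were higher in May than in August, while both thinning libraries of May were below thinning August replicate 1, and the log2 fold change was -0.92 (SE 0.74, limma adjusted p = 0.397). TRINITY_DN3373_c0_g2 had -1.05 (SE 0.74, limma adjusted p = 0.342) and TRINITY_DN2293_c0_g1 -0.82. TRINITY_DN12_c0_g3 and TRINITY_DN4563_c0_g1 had -0.40 each, and TRINITY_DN4_c0_g1 had 0.87 (SE 1.17, limma adjusted p = 0.626). Under quantile normalization the sign of 4 of them turned, of both members of TRINITY_DN2293_c0 (0.19 and 0.14), TRINITY_DN12_c0_g3 (0.56) and TRINITY_DN4563_c0_g1 (0.46).

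The 2 higher calls were both of TRINITY_DN9273_c0. TRINITY_DN9273_c0_g4 was at 2068 and 1588 in control August, 2282 and 1921 in thinning August and 2102 and 2376 in thinning plus shading August. In May it was at 794 and 1053 for control trees, 1001 and 369.6 for thinning trees and 1886 and 1394 under thinning plus shading. On the deposited scale 1 May library with thinning plus shading reached into the August range, and rescaled the months did not overlap. The log2 fold change was 1.08 (SE 0.27, limma adjusted p = 0.033) for g4 and 1.06 (limma adjusted p = 0.032) for g1.

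**Figure D3:**
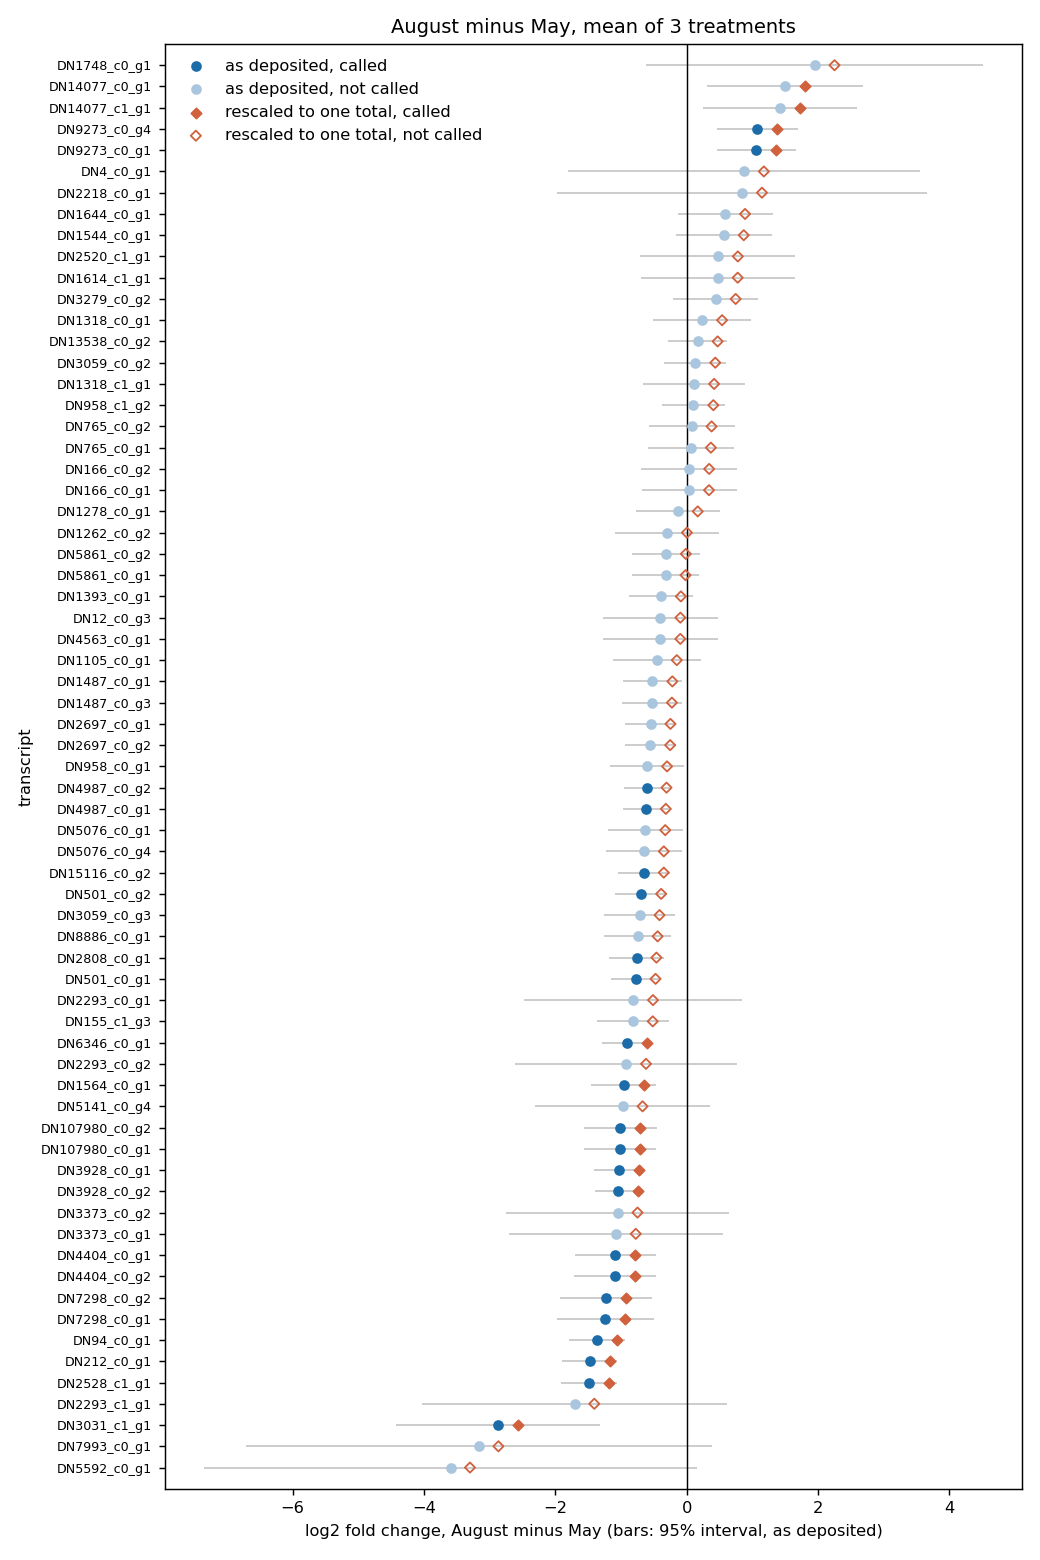
Points give the log2 fold change of August minus May for each of the 67 members as deposited (circles, with the 95% interval) and rescaled to one total (diamonds). Dark circles and filled diamonds are called, and light circles and open diamonds are not. The 20 lower calls as deposited lie between -2.87 and -0.61, and every diamond lies to the right of its circle, by a median of 0.30.

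Rescaling to one total moved every fold change upward, by a median of 0.30 over the members, because the May factors are higher. The median became -0.30 over the members and 0.26 over all tested transcripts. Then 18 members were called, 4 higher (5.97%) and 14 lower (20.9%), where 25.9% of the 19895 transcripts then tested were called, 22.7% higher and 3.28% lower. At an unadjusted p under 0.05 there were 34 members as deposited (34.1% of all transcripts) and 24 rescaled (40.1% of all). Of the calls as deposited, 16 were also called here: 14 lower and 2 higher. The 6 lower calls lost were those of TRINITY_DN501_c0, TRINITY_DN4987_c0, TRINITY_DN15116_c0_g2 and TRINITY_DN2808_c0_g1. The 2 higher calls gained were TRINITY_DN14077_c0_g1 (1.80, limma adjusted p = 0.038) and TRINITY_DN14077_c1_g1 (1.73, limma adjusted p = 0.042), from 2 components of 1 cluster. With each column rescaled to one total over the transcripts that are not members, 2 were called higher and 16 lower. The share of all transcripts called on that scale is not given here. At an unadjusted p under 0.05 there were 27 members on it (34.9% of all transcripts).

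The sign of 2 members differed between the scalings, neither of them called on either. TRINITY_DN1262_c0_g2 had -0.30 as deposited and 0.00252 rescaled, and TRINITY_DN1278_c0_g1 -0.14 and 0.17. The other 65 had 1 sign on both scales.

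Read by overlap, 7 members had every August library below every May library as deposited (4.47% of all tested transcripts did) and 0 had every August library above (4.21% did). The 7 were TRINITY_DN1564_c0_g1, TRINITY_DN2528_c1_g1, TRINITY_DN212_c0_g1, TRINITY_DN94_c0_g1, TRINITY_DN3059_c0_g3, TRINITY_DN6346_c0_g1 and TRINITY_DN3928_c0_g2, and all but TRINITY_DN3059_c0_g3 were called. Rescaled, the first 4 remained below (1.23% of all), and both members of TRINITY_DN9273_c0 lay above (11.3% of all). Thinning May replicate 2 made much of the overlap: without it, 25 members had August below May as deposited (7.46% of all) and 13 rescaled (2.76%). Without thinning May replicate 1 the number as deposited was 7. The share of all transcripts is not given for that case, so nothing is read from this number.

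The count of calls depended on single libraries. Each library was left out in turn. More members were called without thinning May replicate 1 or without thinning May replicate 2, and fewer without any 1 of the other 10. A group then holds 1 library, and the share of all transcripts called in these fits is not given here. The counts are therefore left out and are not read as a trait of the members. Of the 22 calls, 6 held in all 12 of these fits: TRINITY_DN2528_c1_g1, TRINITY_DN212_c0_g1, TRINITY_DN94_c0_g1, both members of TRINITY_DN3928_c0 and TRINITY_DN6346_c0_g1. Another 8, among them TRINITY_DN3031_c1_g1, TRINITY_DN7298_c0_g1 and the pairs of TRINITY_DN4404_c0 and TRINITY_DN9273_c0, held only in the fits without a thinning May library. No fold change of the 22 turned its sign in them.

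Within single treatments few or no members were called. In control trees 0 of 67 were called (limma; 1.07% of all tested transcripts were), with 16 at an unadjusted p under 0.05, where 15% of all transcripts were. In thinning trees 0 were called (1.56% of all) and 15 were at an unadjusted p under 0.05 (22.2% of all). In trees with thinning plus shading 5 were called, all lower in August (1.18% of all were called, 0.674% lower), and 30 were at an unadjusted p under 0.05 (17.2% of all). The median log2 fold change of the members was -0.66 for control trees, 0.00296 for thinning trees and -1.10 under thinning plus shading. None of the tests of the difference between treatments in the month change called a member, as given below, so the treatments are not shown to differ in it.

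The 5 were TRINITY_DN212_c0_g1 and TRINITY_DN2528_c1_g1 (-1.93 each), TRINITY_DN3928_c0_g2 (-1.75), TRINITY_DN3928_c0_g1 (-1.72) and TRINITY_DN501_c0_g1 (-1.54), with limma adjusted p from 0.035 to 0.049. TRINITY_DN3928_c0_g2 was at 585 and 471 scaled TPM in the August libraries of these trees and at 1645 and 1891 in their May libraries. In control trees it was at 1005 and 926 in August and 1917 and 1442 in May, and in thinning trees at 624 and 769 in August and 1051 and 1036 in May. The months did not overlap in any treatment. Rescaled, TRINITY_DN501_c0_g1 was no longer called (limma adjusted p = 0.056), which left 4 (2.91% of all called, 0.472% lower).

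Rescaled, the thinning trees had 2 calls, TRINITY_DN9273_c0_g4 (2.08, limma adjusted p = 0.029) and TRINITY_DN9273_c0_g1 (2.06, limma adjusted p = 0.028), both higher in August, where 8.41% of all transcripts were called and 7.78% were higher. Control trees had 0 called (limma; 2.93% of all) and 9 at an unadjusted p under 0.05 (16.3% of all). These counts depended on the May libraries of the thinning trees. As deposited, more members were called in each treatment without thinning May replicate 1, and more without replicate 2. In the trees with thinning plus shading, fewer were called without any 1 of the other 10 libraries. A group then holds 1 library, and the share of all transcripts called in these fits is not given here, so no counts are given. All groups share 1 estimate of the spread in these fits.

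No member was called between treatments in either month, in the mean of the months, or in the difference between the months, as deposited or rescaled (limma, 12 comparisons). Beside them, the share of all tested transcripts called in August as deposited was 0.892% for thinning minus control, 0.188% for thinning plus shading minus control and 0% for thinning plus shading minus thinning. In May it was 0%, 0% and 0.0101%, in the mean of the months 0%, 0.0152% and 0%, and in the 3 differences between the months 0%. Rescaled, the shares were 0.87%, 0.276% and 0.0101% in August, 0%, 0% and 0.0101% in May, 0%, 0.0302% and 0% in the mean of the months, and 0% in the differences between the months. At an unadjusted p under 0.05, as deposited, there were 1, 8 and 6 members in August (10.8%, 11.7% and 4.58% of all transcripts) and 13, 4 and 27 in May (8.51%, 4.87% and 8.04% of all). In the mean of the months there were 3, 7 and 11 (10.8%, 12.6% and 4.14% of all), and in the differences between the months, in the same order, 9, 3 and 16 (8.96%, 5.01% and 8.64% of all). The 95% interval of a treatment difference within a month extended a median of 1.07 log2 units to each side over the members, so differences of about 2-fold were mostly within it.

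The smallest adjusted p value of these comparisons was that of TRINITY_DN1318_c1_g1 for thinning plus shading minus control. TRINITY_DN1318_c1_g1 was at 1526 and 1050.2 in control August and 1666 and 2827 in control May. In the thinning trees it was at 1769.9 and 1328 in August and 401 and 788 in May. With thinning plus shading it was at 722 and 218 in August and 540.0 and 461 in May, all 4 below every control library. As the mean of the months, thinning plus shading minus control was -1.89 (SE 0.42, limma adjusted p = 0.149), and -1.60 (limma adjusted p = 0.189) for TRINITY_DN1318_c0_g1 of the same cluster. In August alone, both members of TRINITY_DN501_c0 and TRINITY_DN3928_c0_g1 had differences of -1.01, -1.02 and -1.06 (limma adjusted p from 0.185 to 0.205). None of these passed the test.

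The largest difference between treatments in the month change was that of TRINITY_DN3373_c0_g2, and it did not pass the test. In August this transcript was at 396 and 575 for control trees, 5902 and 1099.8 for thinning trees and 1194 and 3238 under thinning plus shading. In May it was at 5052 and 7433, 1206 and 64.1, and 11878 and 13084 in the same groups. In August both thinned groups lay above the control libraries, and in May the thinning libraries lay below the control libraries. The change from May to August in thinning minus that in control was 6.87 log2 units (SE 1.82, limma adjusted p = 0.258). In August, 4 members had all 4 libraries of thinned trees above both control libraries (5.97%, against 13.2% of all transcripts), and 12 had them all below (17.9%, against 15.5% of all). The first were both members of TRINITY_DN3373_c0, TRINITY_DN7993_c0_g1 and TRINITY_DN5592_c0_g1, and the second include TRINITY_DN3031_c1_g1 and the TRINITY_DN7298_c0 pair. Both thinned groups were compared with the same 2 control libraries.

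Without thinning May replicate 1, members were called between treatments in May, in the mean of the months and in the differences between the months. The thinning group of May then held only replicate 2, the lowest of the 12 libraries for 21 members, and was assumed to vary like the others. The calls can therefore reflect that library alone. No counts are given, as the share of all transcripts called in this fit is not given here. Without thinning May replicate 2, or any 1 of the other 10 libraries, no member was called in these comparisons (limma).

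The members most uneven between libraries were high in a few May libraries. TRINITY_DN7993_c0_g1 was between 12 and 278 scaled TPM in August. In May it was at 7150.2 and 249 for control trees, 180.1 and 14891 for thinning trees and 8.65 and 1247 under thinning plus shading. It reached 1000 in 3 libraries only, and thinning May replicate 2 alone held 62.5% of its summed TPM. TRINITY_DN5592_c0_g1 followed the same course, at 6988 and 157 in control May, 102 and 14762 in thinning May and 8.67 and 1191 in thinning plus shading May, with 64.0% in that library. Their coefficients of variation over the 12 rescaled libraries were 226% and 232%, and TRINITY_DN3031_c1_g1 came next with 107%. TRINITY_DN5141_c0_g4 was also highest in thinning May replicate 2, at 3848, and second highest in control May replicate 1, at 2082. The 2 libraries of a treatment lay far apart in all 3 transcripts in control and thinning trees in May. Under thinning plus shading in May the TPM of replicate 2 was 141 times that of replicate 1 for TRINITY_DN7993_c0_g1. It was 134 times for TRINITY_DN5592_c0_g1 and 2.13 times for TRINITY_DN5141_c0_g4.

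Other members were far lower in thinning May replicate 2 than elsewhere. TRINITY_DN4_c0_g1 was between 1499 and 3956 in August and between 1951 and 6717 in 5 of the May libraries, and at 10.3 in that one. TRINITY_DN2218_c0_g1 was there at 4.79, against 968 or more in the other 11, and TRINITY_DN1748_c0_g1 at 4.03, against 547 or more. Both members of TRINITY_DN2293_c0 and of TRINITY_DN3373_c0, and TRINITY_DN3031_c1_g1, were also over 10-fold lower there than in replicate 1. That library was the lowest of the 12 for 21 members, and thinning plus shading August replicate 2 for another 21. Rescaled, the numbers were 24 and 19. The highest values were most often in the May libraries with thinning plus shading, with 17 members highest in replicate 1 and 24 in replicate 2. TRINITY_DN4_c0_g1 had a month change of 0.87 with all libraries, 2.19 without thinning May replicate 1 and -0.45 without replicate 2.

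**Figure D4:**
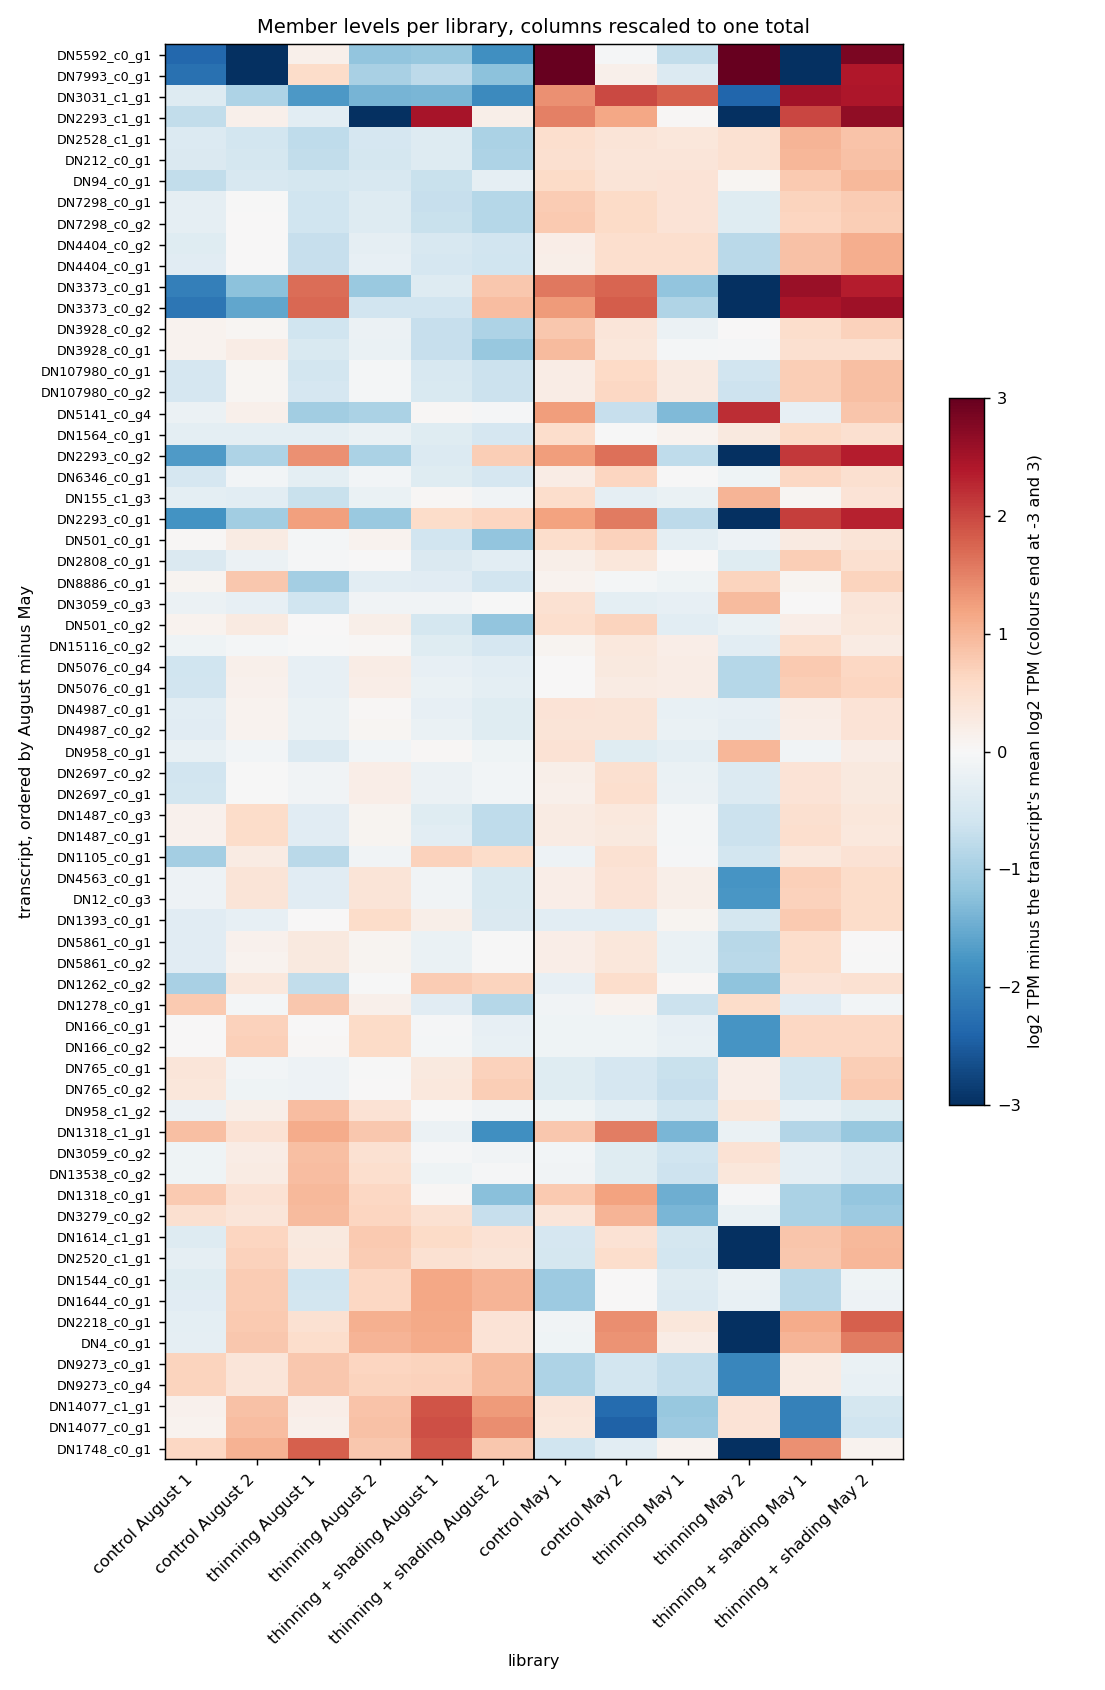
Colours give log2 TPM (columns rescaled to one total) minus the mean of each transcript, for the 67 members in rows ordered by their August minus May change and the 12 libraries in columns, with colours ending at -3 and 3. Thinning May replicate 2 departs from the other May libraries in many rows and is the lowest library of 24 members on this scale.

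The steadiest members had means not far above the threshold. The lowest coefficients of variation over the rescaled libraries were 20.8% for TRINITY_DN4987_c0_g2, 21.0% for TRINITY_DN15116_c0_g2 and 21.0% for TRINITY_DN4987_c0_g1. TRINITY_DN4987_c0_g2 was between 725 and 996 scaled TPM in August, with a median of 855, and between 899 and 1616 in May, with a median of 1431. All 3 were called lower in August as deposited, with log2 fold changes of -0.61, -0.65 and -0.62, and none was called after rescaling (limma adjusted p from 0.132 to 0.164).

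**Figure D5:**
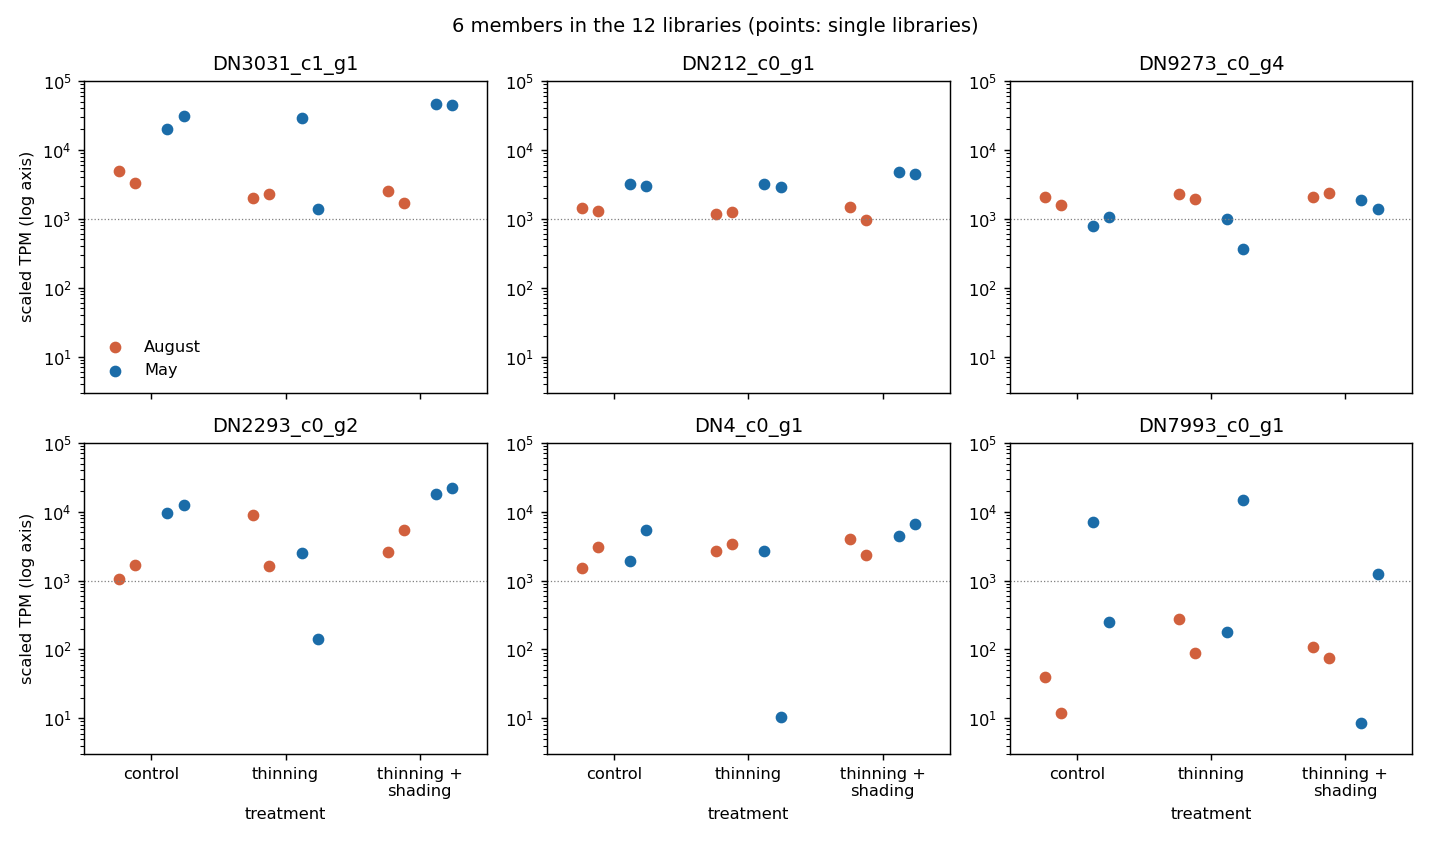
Points give scaled TPM on a log axis in each of the 12 libraries for 6 members, by treatment, with August and May in separate colours and a dotted line at 1000. TRINITY_DN212_c0_g1 and, with 1 exception, TRINITY_DN3031_c1_g1 are lower in August, TRINITY_DN9273_c0_g4 is mostly higher, and TRINITY_DN7993_c0_g1 reaches 14891 in thinning May replicate 2, where TRINITY_DN4_c0_g1 is at 10.3.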

How the data were processed

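Poly(A) RNA of fir needles was read in 12 libraries as paired reads of 150 bp, per the labels' protocols, whose extraction text speaks of roots of another conifer although the tissue labels of all 12 say needles. Trimmomatic, RSEM and DESeq2 are named, with no version, per the submitters' processing notes. How the transcripts were assembled, scaled or filtered is not stated in any source at hand. The unit of the deposited signal was found from its values. Once a column has the total of TPM, 99.3% or more of its nonzero values fall on steps of 0.01 (tolerance 0.1 step), so the signal is TPM with 2 decimals times 1 factor per library. TPM keeps no depth, so no depth or counting interval is given.

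Groups were taken from the sample titles. Differences were tested with limma 3.58.1 (R 4.3.3) on log2(value + 1), over transcripts at 10 or more in at least 2 libraries, in 1 fit of 6 group means with 6 residual degrees of freedom and an intensity trend, for 16 comparisons; fold changes are on that scale. The script was tested on simulated data. Tests that need counts do not apply to these values. Tables were handled in Python 3.11.15 with pandas 2.3.3. The rule for the members, the lists and the tests were chosen with earlier results of these data known. Named transcripts are the 10 highest, up to 8 called in each direction between months, all members of shared components, up to 3 called per direction in other comparisons, the 3 with the lowest and the 3 with the highest coefficient of variation, up to 5 with the largest share in 1 library, those whose sign differs between scalings, and 3 on each side of the threshold; others are said to be chosen after their values were seen or named beside a result they take part in. Alternatives were other scalings, pseudocounts of 0.5 and 8, no filter and a filter of 50, no trend, a replicate block, only the groups compared, leaving out each library, other thresholds for membership and, added after seeing the data, sums by component. Lists of marker and pathway genes could not be applied, as the identifiers carry no names.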

Additional observations from a re-analysis of the deposited data

How the results depend on the processing

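Between the months, 22 members were called, and the count stayed within 1.5 times of that with either rescaling (18), pseudocounts of 0.5 (20) and 8 (26), a filter of 50 (24), no trend (25) and sums by component (15, an alternative added after seeing the data). It was 10 under quantile normalization (5 higher, 5 lower), 11 with no filter and 6 to 35 when 1 library was left out. Higher calls were 2 of 22 as deposited, 4 of 18 rescaled and 5 of 10 under quantile normalization. Of all tested transcripts, 15.7% were called between the months as deposited and 25.9% with each column rescaled to one total. That share is not given for the other settings, and a fit without 1 library leaves 1 library in a group. Changes in the counts of this paragraph can follow those of all transcripts, and are not read as a trait of the members. Quantile normalization gives each rank 1 value in all libraries. It turned the month change of TRINITY_DN7298_c0_g1 (0.37), TRINITY_DN7298_c0_g2 (0.39), TRINITY_DN2293_c0_g2 (0.19), TRINITY_DN2293_c0_g1 (0.14), TRINITY_DN12_c0_g3 (0.56) and TRINITY_DN4563_c0_g1 (0.46). As TRINITY_DN7298_c0_g1 was the top transcript of every August library, its change cannot be negative on that scale. Its turn therefore says nothing about the month change. Leaving out 1 library gave TRINITY_DN4_c0_g1 between -0.45 (without thinning May replicate 2) and 2.19 (without replicate 1). Otherwise the cause of these turns was not tested. Of the 22 calls, 5 held in all 12 leave-one-out fits and all 9 other fits of single transcripts. In control trees the 0 calls became 3 with a pseudocount of 8, 3 with only the groups compared and 1 without the trend. In thinning trees the 0 calls became 2 with either rescaling, 2 with a pseudocount of 8 and 1 without the trend. With thinning plus shading the 5 became 0 under quantile normalization and with no filter, 3 and 12 with pseudocounts of 0.5 and 8, 8 with a filter of 50, 11 without the trend, and 0 to 23 leaving out 1 library. Between treatments 0 were called under every alternative except leave-one-out fits: 0 to 40 in May, 0 to 13 in the mean of months and 0 to 31 in the differences between months. A mean of 500 gave 188 members, which held 22.1% of August and 29.0% of May libraries; a mean of 2000 gave 27, with 8.67% and 15.3%; a mean of 1000 after rescaling gave 66 (65 shared), and a median of 1000 gave 55.

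Replicate numbers did not pair the libraries in a common direction: deviations of same-numbered libraries correlated between -0.71 and 0.63 over group pairs. The largest in size were those within May. They were -0.71 for control and thinning, -0.54 for control and thinning plus shading, and 0.63 for thinning and thinning plus shading. In May, then, same-numbered libraries of control trees deviated opposite to those of both thinned groups, and the cause was not tested. All other pairs lay between -0.26 and 0.22. With a replicate block 15 members were called between months (all among the 22), 0 with thinning plus shading, and 0 in every other comparison. Shares of all transcripts called are not given for this fit.

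Limits: groups hold 2 libraries, depth is unknown, members of a library share its scaling, membership rests on the tested values, and the months differ in year.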
